A study of Mus musculus with 14 samples.

Results

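The 10 selenoprotein genes described here, which are neither glutathione peroxidases, thioredoxin reductases nor deiodinases, are Sepw1, Selk, Sels, Selm, Selt, Sep15, Sepn1, Sepp1, Selo and Sepx1, followed through oligodendrocyte (OL) differentiation and siRNA knockdown. They were chosen by symbol, with earlier results of these data known, and are 10 of the 23427 genes in the table. The table held 6 under these symbols and 4 under others, Sels as Vimp, Selt as 2810407C02Rik, Selo as 1300018J18Rik and Sepx1 as Msrb1. All 10 passed the filter on low values, at least 1 FPKM in at least 2 libraries. FPKM counts fragments per kilobase of exon scaled to the mapped total of the library, so it is a level per length.

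The study sequenced mRNA of primary oligodendrocyte precursor cells (OPCs) from the cortex of wild-type C57BL/6J mouse pups at postnatal day 7. Immunopanning on an antibody to Pdgfra captured these cells, after lectin (BSL I) plates had taken out microglia and endothelial cells. In the paper, OPCs were set to differentiate by removal of growth factors and addition of T3, a thyroid hormone. Its differentiation series counts days from there. For the knockdowns it gives the times of transfection and harvest, but not when T3 was added. The 14 libraries form 7 groups of 2 independent replicates: Day0 cells without transfection and 6 groups at Day3, namely non-treated, mock (transfection reagent with no siRNA), NC siRNA #1 and NC siRNA #2 (non-targeting siRNAs), siSbp2l and siPdgfra. The Day3 groups share the day label, and the paper does not state the medium of each. Of these groups 4, non-treated, mock and the NC siRNAs, serve as controls that the knockdown comparisons share. The question was which genes change in differentiating OLs when Secisbp2l, the gene of Sbp2l, is silenced, with siPdgfra as a knockdown of another gene.

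Selenoproteins carry selenocysteine, an amino acid encoded by UGA, which elsewhere ends translation. A stem-loop in the 3′ UTR of the mRNA, the SECIS element, and the factor that binds it, Sbp2, let the ribosome insert selenocysteine there, and Sbp2l is a paralog of Sbp2. When UGA is read as a stop well before the last exon junction, nonsense-mediated decay can remove the mRNA, so selenoprotein mRNAs differ in how they respond to a shortage of selenium. Most of the genes described here encode proteins of the endoplasmic reticulum (ER), which folds the membrane and secreted proteins that myelin needs in bulk. The libraries measured mRNA, not protein.

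The selenocysteine codons in the GENCODE M21 annotation of mm10 differ in place among the 10 genes. The first such codon lies early in Sepw1, at codon 13 of 88, in Selm at 48 of 145 and in Selt at 49 of 195. It lies at 93 of 162 in Sep15, 428 of 557 in Sepn1 and 95 of 116 in Sepx1. In Selk it is codon 92 of 94, in Sels 189 of 190 and in Selo 665 of 667, so that at most 2 residues follow. Sepp1 has 10 such codons, the first at 59 of 380 and the other 9 in the last exon. The first codon stands in an exon before the last in 8 genes and in the last exon in Sels and Selo. In those 8 its distance to the last junction differed. It was 5 bases in Selk and 34 in Sepx1, and from 78 (Sep15) to 470 bases (Selt) in the others. The windows below show the codon, in capitals with 12 bases on each side, for the 5 genes that differed from all 4 controls in a knockdown.
Selt: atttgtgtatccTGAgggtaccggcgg
Selk: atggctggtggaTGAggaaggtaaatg
Sep15: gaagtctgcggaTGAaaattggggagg
Selo: ctctgtgtaacaTGAtcctcataaagg
Sepx1: caatcaagattcTGAatatttagcagc
These codons are exonic and coding, at chr3:58585238-58585240 in exon 2 of 6 (Selt), chr14:29973440-29973442 in exon 4 of 5 (Selk), chr3:144590645-144590647 in exon 3 of 5 (Sep15), chr15:89099975-89099977 in exon 9 of 9 (Selo) and chr17:24740158-24740160 in exon 3 of 4 (Sepx1), all on the plus strand. Selt and Selo have a cysteine codon, tgt, 3 codons before the TGA, as do Sepw1 and Selm, and the other 6 genes do not. Sep15 has a cysteine codon, tgc, 2 codons before it. In Selk and Selo the reading frame ends 2 codons after the TGA, with taa in both windows.

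**Figure D1:**
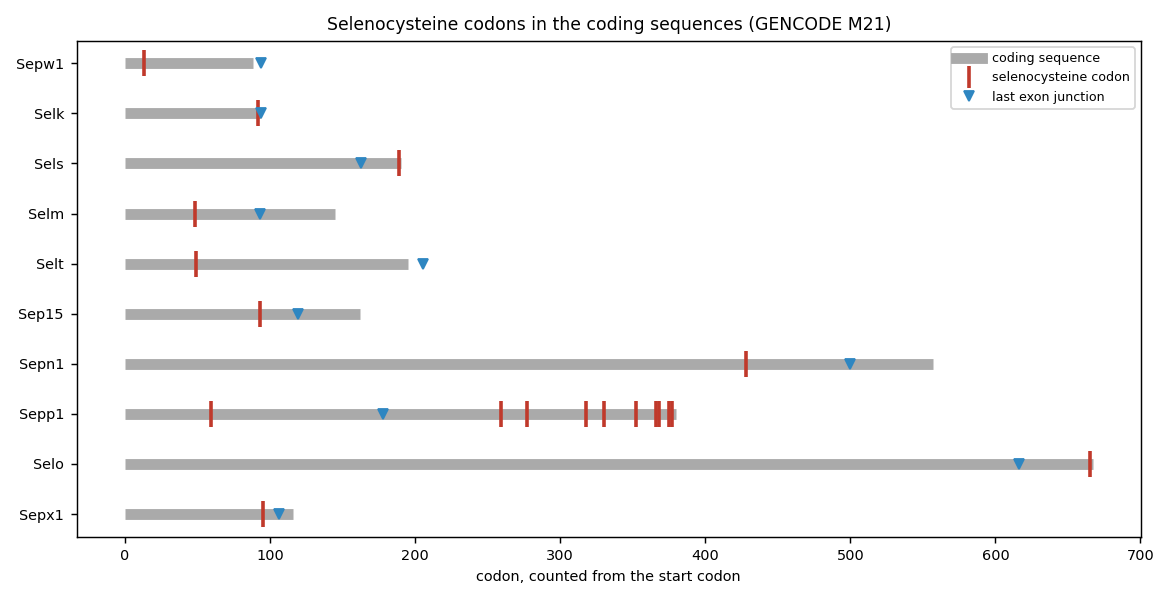
Place of the selenocysteine codons along each coding sequence, in codons from the start codon (grey bar, coding sequence; red tick, selenocysteine codon; blue triangle, last exon junction). Sels and Selo have their codon after the last junction, the other 8 genes have their first one before it, and Sepp1 has 9 more after it. In Sepw1 and Selt the last junction lies beyond the end of the coding sequence.

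The estimated depth ran from 6550782 fragments (NC siRNA #2 replicate 2) to 31565172 (Day0 replicate 1). The non-treated pair stood apart. Its replicates differed on the log2 scale with an SD over genes of 0.457, against 0.148 to 0.1995 in the other groups. That difference followed GC content (Spearman rho = 0.80 across 11786 genes, which are not independent replicates). The smaller replicate differences at Day0 (rho = 0.50) and in NC siRNA #1 (rho = -0.45) also followed GC content. In the remaining groups rho was between -0.05 (mock) and 0.19 (NC siRNA #2). The siRNAs lowered their targets: Secisbp2l was at 3.91 and 3.82 FPKM in siSbp2l and at 135 to 255 FPKM in the Day3 controls, and Pdgfra was at 3.30 and 2.69 FPKM in siPdgfra and at 32.4 to 72.1 FPKM in the controls. All 6 OPC and 7 OL markers were measured, and the summed OL markers were 727 and 807 FPKM at Day0, 6730 to 10012 FPKM in the Day3 controls, 2664 and 2844 FPKM in siSbp2l and 5050 and 5799 FPKM in siPdgfra. In bulk samples, fewer cells of a type and less RNA per cell cannot be told apart. In the microglia list, 1 of 10 markers, P2ry12, reached 1 FPKM in any group mean, and C1qb, C1qc and Tyrobp were at 0 in every group.

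Sepw1, a small cytosolic protein with a thioredoxin-like fold, had the highest level per length of the 10 in all 7 groups. At Day0 it was at 181 ± 3.54 FPKM (SD, n = 2), followed by Sep15 at 174 ± 0.481, Selt at 105 ± 1.84 and Selk at 105 ± 5.67 FPKM. The Day0 levels of Sepw1 and Sep15 did not overlap between libraries, and those of Selt and Selk did. Sels was at 42.0, Selm at 25.0, Sepn1 at 18.2, Selo at 16.8, Sepx1 at 14.9 and Sepp1 at 3.81 FPKM (group means at Day0). Further down this order, only the neighbours Sepn1 and Selo overlapped at Day0. Over the 14 libraries the level varied by 1.61-fold in Sep15, the steadiest, and by 3.90-fold in Sepx1, the most variable.

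**Figure D2:**
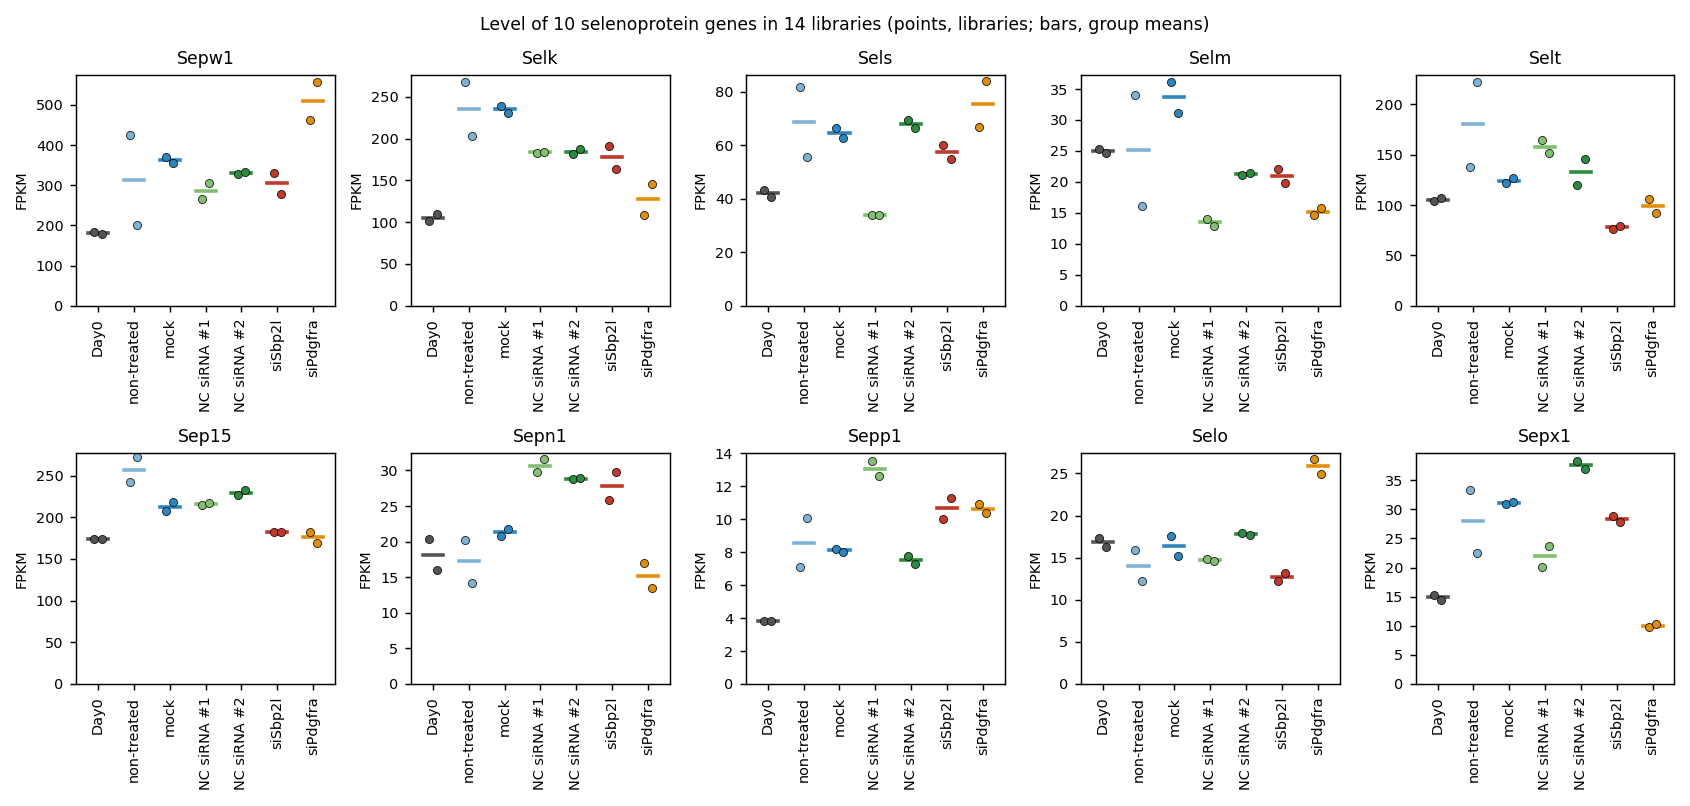
Level of each gene in FPKM (vertical axes, each from 0) in the 7 groups, with points for libraries and bars for group means. Selt is lowest in siSbp2l, Sepx1 is lowest and Sepw1 and Selo are highest in siPdgfra, Sels and Selm are lowest in NC siRNA #1, and the non-treated replicates lie apart for most genes.

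The non-treated replicates differed by more than 2-fold in Sepw1, at 425 and 200 FPKM, and in Selm, at 34.1 and 16.1 FPKM. Selt went the other way, at 138 FPKM in replicate 1 and 222 FPKM in replicate 2, as did Sepp1 at 7.08 and 10.1 and Sep15 at 242 and 272 FPKM. The 7 genes higher in replicate 1 have transcripts of 45.7% GC (Selk) to 61.7% GC (Selm), and the 3 higher in replicate 2 have 39.3% (Selt) to 44.5% (Sep15). Across the 10 genes the log2 ratio of the replicates had r = 0.85 with GC content, a description of a single pair of libraries. The order of the genes follows the trend over all genes given above, so each knockdown against the mean of the controls is given with and without this pair.

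**Figure D3:**
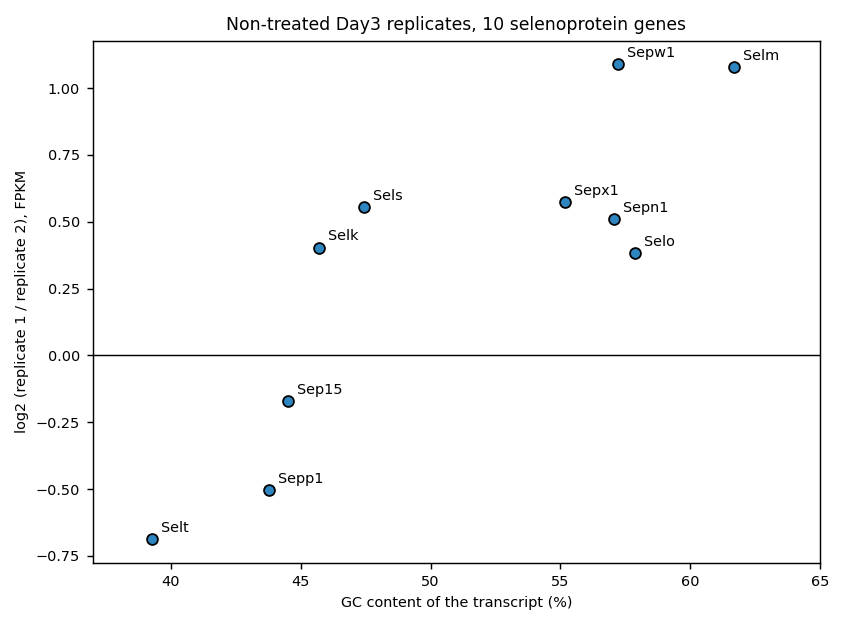
Log2 ratio of the non-treated Day3 replicates (vertical axis) against the GC content of the transcript in percent (horizontal axis), 1 point a gene. Sepw1 and Selm lie above 1 at 57.2% and 61.7% GC, and Selt lies lowest, at -0.69 and 39.3% GC.

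What differentiation changes was asked by setting Day3 against Day0. Most of these genes had higher mRNA levels at Day3. In non-treated cells 7 of 10 passed the test (limma on log2(FPKM + 1), adjusted p under 0.05), all higher, where 67% of all genes passed, 28.4% as higher and 38.6% as lower. In mock cells 6 passed, all higher, where 66.3% of all genes passed and 29.7% as higher. The median log2 difference of the 10 was 0.68 in non-treated and 0.51 in mock, beside -0.12 and -0.07 over all genes tested. The Day3 groups share the Day0 libraries, so their values are set side by side.

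Selk and Sels encode single-pass ER membrane proteins of the retrotranslocation complex, which passes misfolded proteins out of the ER to the proteasome. Selk was at 101 and 109 FPKM at Day0, 268 and 203 FPKM in non-treated and 239 and 231 FPKM in mock cells. Every Day3 library of these groups lay above Day0, a rise of 1.14 ± 0.16 (SE; adjusted p = 6.05e-05) and 1.15 ± 0.16 (adjusted p = 5.75e-05) on the log2 scale, and Selk was the one gene called in both, that is, passed with at least a 2-fold change (26.6% and 26.2% of all genes). It also rose in NC siRNA #1 (0.80), NC siRNA #2 (0.80) and siSbp2l (0.75), and in siPdgfra the log2 difference was 0.26 (adjusted p = 0.16). Sels rose in non-treated (0.67), mock (0.61), NC siRNA #2 (0.68), siSbp2l (0.44) and siPdgfra (0.82) cells, from 43.2 and 40.8 FPKM at Day0. In NC siRNA #1 it stood at 33.7 and 33.9 FPKM, below both Day0 libraries, with a log2 difference of -0.30 (adjusted p = 0.11).

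Sepp1 encodes selenoprotein P, the secreted carrier of selenium that brain cells take up through the receptor Lrp8. It was at 3.80 and 3.82 FPKM at Day0 and between 7.08 and 13.5 FPKM in the 12 Day3 libraries, with no overlap. It passed in all 6 groups, with log2 rises of 0.97 in non-treated, 0.92 in mock, 1.55 in NC siRNA #1, 0.83 in NC siRNA #2, and 1.27 in both siSbp2l and siPdgfra (adjusted p from 1.08e-06 to 0.000185). Its level was the lowest of the 10 in 6 of the 7 groups. The summed microglia markers, nearly all P2ry12, were 0.568 and 0.762 FPKM at Day0 and 8.80 and 9.46 FPKM in NC siRNA #1, where Sepp1 was highest. The other microglia markers listed were at or near 0 in every group. The summed neuronal markers, 27.5 and 29.4 FPKM at Day0 and 269 and 276 FPKM in NC siRNA #1, were almost all Tubb3, with group means of 23.7 and 270.0 FPKM. In NC siRNA #1 against Day0, the group means of Snap25 (0.548 and 2.04 FPKM) and Syt1 (1.68 and 2.56 FPKM) were lower. Those of Rbfox3 (0.208 and 0.0774 FPKM), Gad1 (0.448 and 0.137 FPKM) and Stmn2 (0.0133 and 0.0117 FPKM) were higher, all under 1 FPKM. Syt1 was higher in siSbp2l (5.05 FPKM) and siPdgfra (4.72 FPKM) than at Day0, and Slc17a6 was at 0 in every group. The part of other cells in the Sepp1 levels was not tested.

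Sepx1 encodes a reductase that repairs oxidized methionine and reverses the oxidation of actin by Mical enzymes. From 15.3 and 14.5 FPKM at Day0 it stood at 33.4 and 22.5 in non-treated, 30.9 and 31.3 in mock and 38.3 and 37.0 FPKM in NC siRNA #2. The log2 rise was 0.84 in non-treated, 1.01 in mock, 1.28 in NC siRNA #2, 0.53 in NC siRNA #1 and 0.89 in siSbp2l (adjusted p from 1.56e-05 to 0.00844). The siPdgfra libraries, at 9.81 and 10.2 FPKM, were below both Day0 libraries, and Sepx1 fell by 0.53 there (adjusted p = 0.00848).

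Sepw1 rose in all 6 Day3 groups, from 184 and 179 FPKM at Day0 to 371 and 356 FPKM in mock (log2 rise 1.00 ± 0.26, adjusted p = 0.00576) and 462 and 557 FPKM in siPdgfra (1.48 ± 0.26, adjusted p = 0.000422). In non-treated cells its rise of 0.68 (adjusted p = 0.0388) rested on replicate 1: without that library it was 0.14 (adjusted p = 0.34). Without Day0 replicate 1 or 2 the non-treated rise of Sepw1 did not pass either (0.70 and 0.66, adjusted p = 0.10 and 0.12).

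Among the ER lumen proteins, Sep15, which binds the folding sensor Uggt of glycoprotein quality control, rose in all 4 controls, by 0.56 in non-treated, 0.29 in mock, 0.31 in NC siRNA #1 and 0.40 in NC siRNA #2. Its values were 174 and 174 FPKM at Day0, 207 and 219 in mock and 227 and 232 FPKM in NC siRNA #2. The rise in mock did not pass without Day0 replicate 1 (adjusted p = 0.067), Day0 replicate 2 (adjusted p = 0.064) or mock replicate 2 (adjusted p = 0.11). Selt, an ER oxidoreductase with a thioredoxin-like fold, rose in non-treated (0.73, adjusted p = 0.00448) and NC siRNA #1 (0.58, adjusted p = 0.0152) and had log2 differences of 0.23 in mock and 0.33 in NC siRNA #2. In siSbp2l the Selt difference from Day0 was -0.43 (adjusted p = 0.058), with both libraries below Day0. Selm, an ER relative of Sep15, fell in NC siRNA #1 by 0.85 (adjusted p = 0.00892) and in siPdgfra by 0.69 (adjusted p = 0.0264), and the other groups ranged from -0.25 in siSbp2l to 0.41 in mock.

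Sepn1, an ER membrane protein tied to calcium handling and mutated in a congenital muscle disease, was at 20.3 and 16.0 FPKM at Day0. It rose in NC siRNA #1 (0.73), NC siRNA #2 (0.65) and siSbp2l (0.60). Its log2 difference was -0.08 in non-treated, 0.23 in mock and -0.24 in siPdgfra. Selo, a mitochondrial pseudokinase that attaches AMP to proteins, had differences from -0.26 to 0.08 in the 4 controls. It fell by 0.38 in siSbp2l (adjusted p = 0.0159) and rose by 0.59 in siPdgfra (adjusted p = 0.00106). By group, 8 of the 10 passed in NC siRNA #1 (68.7% of all genes), 7 in NC siRNA #2 (68.7%), 7 in siSbp2l (65.4%) and 6 in siPdgfra (67.8%).

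**Figure D4:**
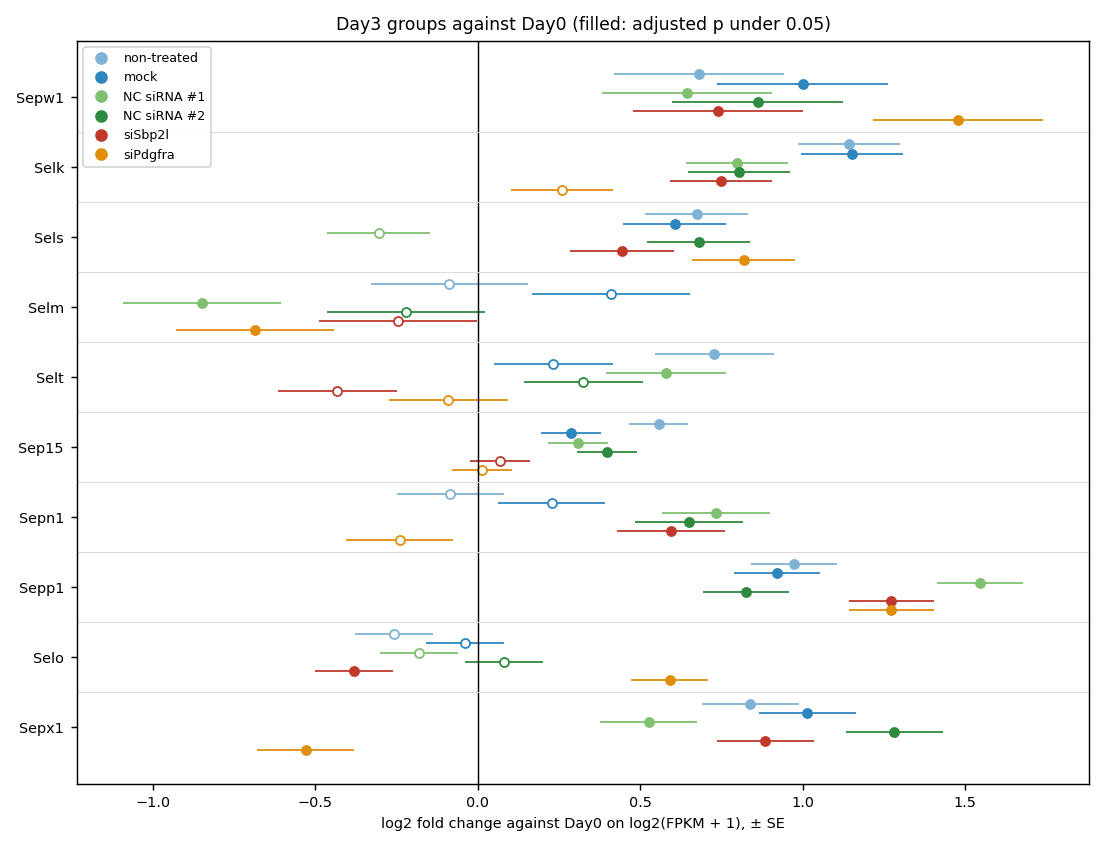
Log2 fold change of each gene in the 6 Day3 groups against Day0 on log2(FPKM + 1), with the SE as bars and filled points for adjusted p under 0.05. Sepp1 and Sepw1 are filled in all 6 groups, and siPdgfra stands on its own at low Sepx1 and high Selo.

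The knockdown of Sbp2l was set against the mean of the 4 Day3 controls and against each of them. Of the 10 genes 3 passed against the mean, Selt, Sep15 and Selo, all lower, where 53.4% of all genes passed, 35.5% as higher and 17.9% as lower. None was called 2-fold (7.19% of all genes). The median log2 difference of the 10 was -0.06, beside 0.15 over all genes, and with median-ratio scaling, which brought the median of all genes to 0.00, it was -0.22 and Selk passed too (-0.39, adjusted p = 0.0161). Directions are given on FPKM as deposited.

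Selt was at 76.3 and 79.5 FPKM in siSbp2l. In the controls it was at 138 and 222 (non-treated), 122 and 127 (mock), 164 and 152 (NC siRNA #1) and 120 and 146 FPKM (NC siRNA #2), so that both siSbp2l libraries lay below all 8 control libraries. The fall was 0.90 ± 0.15 on the log2 scale (SE; adjusted p = 0.000808), from 149 to 77.9 FPKM, and 5.03% of the genes tested had a difference as low or lower. Selt was lower against each control, with log2 differences from -1.16 (non-treated) to -0.67 (mock) (adjusted p from 0.000818 to 0.0197), as were 7.94% of all genes. It passed in all 23 alternatives, with values from -1.07 to -0.77 on the log2 scale, the smallest with GC and length trends removed. The estimated fragments behind it, 5479 and 6110 in siSbp2l and 3399 to 16835 in the controls, leave little counting error.

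Sep15 was at 183 and 182 FPKM in siSbp2l, below all 8 control libraries (207 to 272 FPKM). It fell by 0.32 ± 0.08 (adjusted p = 0.00627), and passed against non-treated (-0.49) and NC siRNA #2 (-0.33) but not against the other controls, mock (-0.22) and NC siRNA #1 (-0.24). With only siSbp2l replicate 1 or only replicate 2 kept, the fall was 0.32 each time and did not pass (adjusted p = 0.061 and 0.062). Selo, at 12.2 and 13.2 FPKM in siSbp2l and 12.2 to 17.97 FPKM in the controls, overlapped them, fell by 0.28 ± 0.10 (adjusted p = 0.0365) and passed against NC siRNA #2 alone (-0.46). The Selo call held in 14 of 23 alternatives and did not pass without either siSbp2l library (adjusted p = 0.24 and 0.10), mock replicate 1 (0.069) or any one NC siRNA library (adjusted p from 0.060 to 0.066), nor with all genes tested (0.052) or only the compared libraries in the fit (0.0504). Selo ends on the strand opposite to Tubgcp6, which overlaps its 3′ end and was at 7.04 and 7.34 FPKM in siSbp2l and 3.68 to 5.63 FPKM in the controls, and how strand was counted is not given in the sources used here.

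The other 7 genes did not pass against the mean. Their log2 differences were -0.23 in Selk, 0.21 in Sepn1, 0.21 in Sepp1, and between -0.06 and 0.03 in Sepw1, Selm, Sepx1 and Sels. Single controls gave opposite answers for several: Sels was higher than in NC siRNA #1 (0.75, adjusted p = 0.00477) with differences of -0.24 to -0.16 from the other 3, and Sepn1 was higher than in non-treated (0.68, adjusted p = 0.00575) and near NC siRNA #2 (-0.05). Sepp1 was higher than in NC siRNA #2 (0.45, adjusted p = 0.0270) and had a difference of -0.27 from NC siRNA #1. By control, 3 genes passed with non-treated (49.3% of all genes), 1 with mock (42.6%), 2 with NC siRNA #1 (47.3%) and 4 with NC siRNA #2 (41.7%). Leaving out non-treated replicate 2 brought the count against the mean to 6, and leaving out siSbp2l replicate 1 or 2 brought it to 1, Selt. With the whole non-treated pair left out of the fit, 4 genes passed where 68.5% of all genes did: Selt (-0.81), Sep15 (-0.26) and Selo (-0.33) were lower and Sepp1 was higher (0.18, adjusted p = 0.0312).

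With siPdgfra, 8 of the 10 genes passed against the mean of the same 4 controls, 3 higher and 5 lower, where 55.4% of all genes passed (32.4% higher and 23% lower). The median log2 difference was -0.44, beside 0.09 over all genes. Selk, Sep15 and Sepx1 were lower and Selo was higher against each of the 4 controls, as were 9.79% and 12.6% of all genes.

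Sepx1 stood at 9.81 and 10.2 FPKM, below all 8 control libraries (20.2 to 38.3 FPKM). It fell by 1.44 ± 0.12 (adjusted p = 9.01e-06) and was the only one of the 10 called 2-fold (7.99% of all genes), and 1.29% of the genes tested had a difference as low or lower. The summed astrocyte markers were also lowest in siPdgfra, at 51.4 and 51.9 FPKM, and were 149 to 184 FPKM in non-treated, mock and NC siRNA #2 and 108 and 115 FPKM in NC siRNA #1. Gfap was measured at 18.01 FPKM in siPdgfra (group mean) and at 37.8 to 76.5 FPKM in the controls. The part of astrocyte-type cells in the Sepx1 levels was not tested.

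Selk fell by 0.71 ± 0.13 (adjusted p = 0.00116), to 109 and 146 FPKM from 181 to 268 FPKM in the controls, so that both siPdgfra libraries were below all controls and overlapped Day0. Sep15 fell by 0.37 ± 0.08 (adjusted p = 0.00247), to 182 and 169 FPKM, and Sepn1 fell by 0.62 ± 0.13 (adjusted p = 0.00217), to 16.9 and 13.5 FPKM, which overlaps the non-treated pair. Selt was at 106 and 92.3 FPKM, below all 8 control libraries, with a fall of 0.56 ± 0.15 (adjusted p = 0.0115). It passed against non-treated (-0.82) and NC siRNA #1 (-0.67) but not against mock (-0.32) or NC siRNA #2 (-0.42). Without siPdgfra replicate 2 the Selt difference from the mean was -0.46 and did not pass.

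Selo rose by 0.69 ± 0.10 (adjusted p = 0.000278), to 26.7 and 25.0 FPKM from 12.2 to 17.97 FPKM, with no overlap, while the overlapping Tubgcp6 was at 5.47 and 4.89 FPKM. Sepw1 rose by 0.68 ± 0.22 (adjusted p = 0.0232), to 462 and 557 FPKM, above all 8 control libraries. It passed against non-treated (0.80) and NC siRNA #1 (0.83) but not against mock (0.48) or NC siRNA #2 (0.62). Sels was at 66.7 and 83.9 FPKM and rose by 0.40 ± 0.13 (adjusted p = 0.0254), but it passed against NC siRNA #1 only (1.12), where the control itself was low, and had differences of 0.14 to 0.21 from the other 3. The call of Sels was lost with upper-quartile scaling (0.31, adjusted p = 0.052). Without siPdgfra replicate 2 neither Sepw1 (adjusted p = 0.19) nor Sels (adjusted p = 0.29) passed and the count was 5, and without siPdgfra replicate 1 Sepw1 did not pass (adjusted p = 0.065). Selm (-0.50, adjusted p = 0.059) and Sepp1 (0.21, adjusted p = 0.14) did not pass. With median-ratio or upper-quartile scaling Selm passed (-0.57 and -0.59, adjusted p = 0.0216 and 0.0242). With the non-treated pair left out of the fit all 10 passed, where 70.5% of all genes did, Selm at -0.47 and Sepp1 at 0.18 among them, and Sepx1 was at -1.47. By control, 6 genes passed with non-treated (50.3% of all genes), 6 with mock (43.2%), 8 with NC siRNA #1 (46.5%) and 6 with NC siRNA #2 (46.4%).

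**Figure D5:**
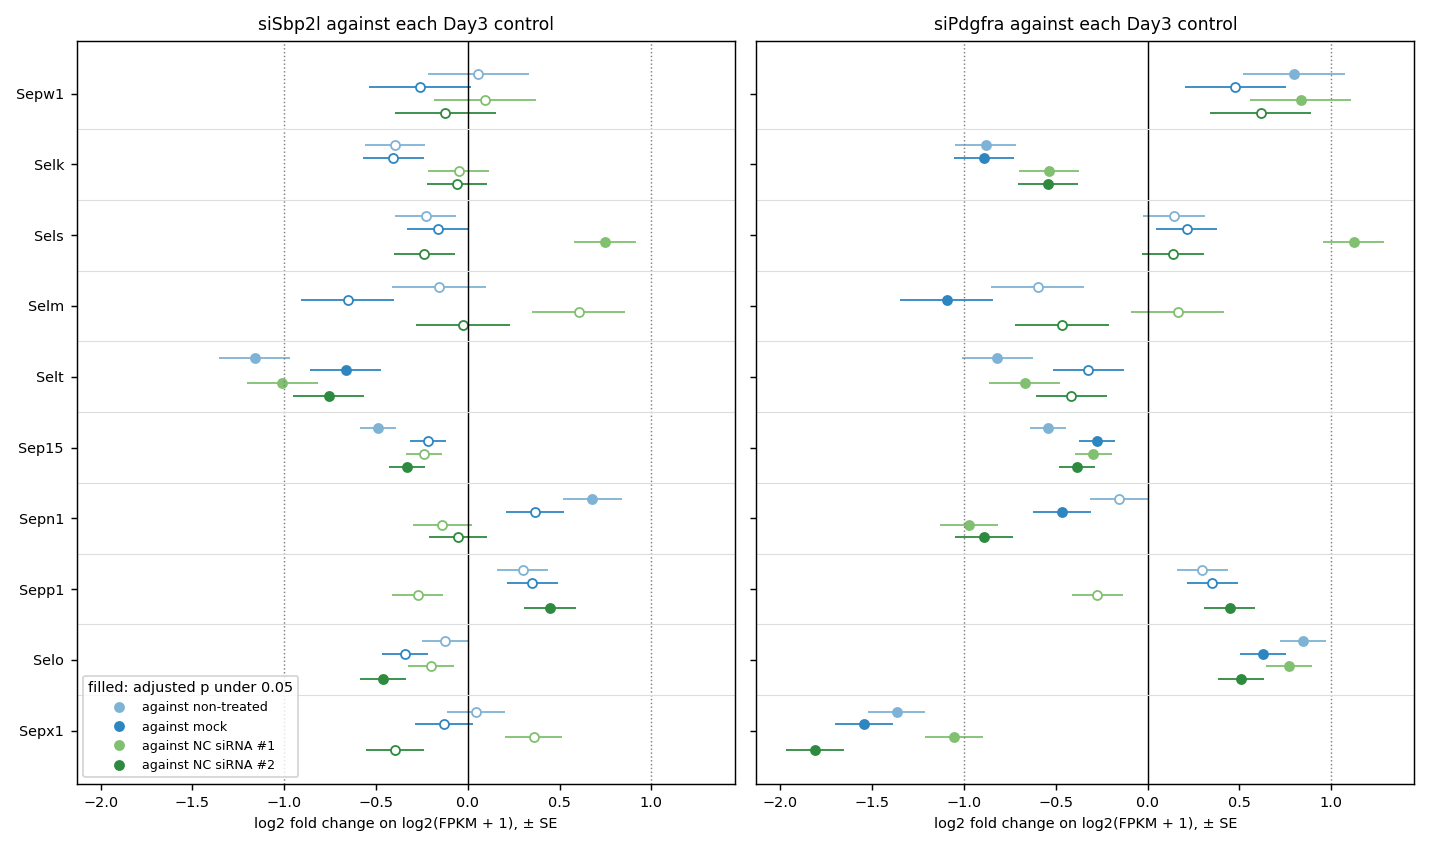
Log2 fold change of each gene in siSbp2l (left) and siPdgfra (right) against each of the 4 Day3 controls on log2(FPKM + 1), with the SE as bars, filled points for adjusted p under 0.05 and dotted lines at 2-fold. Selt is filled and lower against all 4 controls in siSbp2l, and Selk, Sep15, Sepx1 (lower) and Selo (higher) are filled against all 4 in siPdgfra.

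The knockdowns were compared directly, since they share their controls. Of the 10 genes 5 differed between siSbp2l and siPdgfra, where 52% of all genes did. Sepx1 was higher in siSbp2l by 1.41 ± 0.16 (adjusted p = 5.09e-05), Sepn1 by 0.84 ± 0.16 (adjusted p = 0.00154) and Selk by 0.49 ± 0.16 (adjusted p = 0.0304), and Selo was lower by -0.97 ± 0.13 (adjusted p = 0.000139) and Sepw1 by -0.74 ± 0.28 (adjusted p = 0.046). The libraries of the groups did not overlap for any of these 5, nor for Sels, Selm, Selt and Sep15, which did not pass. Overlap was not counted over all genes. The Sepw1 call was lost without any one of the 4 libraries (adjusted p from 0.082 to 0.20) and with the replicate number as a block (adjusted p = 0.0504). The Selk call was lost without siSbp2l replicate 1 (adjusted p = 0.18) or siPdgfra replicate 1 (adjusted p = 0.24). For Selt, lower than the control mean in both knockdowns, the difference was -0.34 ± 0.19 (adjusted p = 0.17), for Sep15 0.06 ± 0.10 and for Sepp1 0.00 ± 0.14. The Selt difference passed with only the compared libraries in the fit (adjusted p = 0.0179) and with GC and length trends removed (-0.43, adjusted p = 0.000779). It did not pass in the other 12 alternatives. With only the compared libraries, and so without the non-treated pair, Sels (-0.375, adjusted p = 0.0336) and Selm (0.44, adjusted p = 0.00449) passed too.

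The controls differed among themselves. Between NC siRNA #1 and NC siRNA #2, 3 of the 10 genes passed (21% of all genes). Sels stood at 33.7 and 33.9 against 69.5 and 66.3 FPKM (-0.98 ± 0.17, adjusted p = 0.00226), where 1.77% of the genes tested were as low or lower. Sepx1 stood at 20.2 and 23.7 against 38.3 and 37.0 FPKM (-0.76, adjusted p = 0.00713) and Sepp1 at 13.5 and 12.6 against 7.78 and 7.28 FPKM (0.72, adjusted p = 0.00475). The Sepx1 call was lost without NC siRNA #1 replicate 1 (adjusted p = 0.076) or NC siRNA #2 replicate 1 (adjusted p = 0.053). Against mock, NC siRNA #1 was lower in Sels (-0.91) and Selm (-1.26) and higher in Sepn1 (0.51) and Sepp1 (0.63), 4 genes where 20.8% of all genes passed. Against non-treated it was lower in Sels (-0.98) and higher in Sepn1 (0.82) and Sepp1 (0.57), 3 genes where 27.4% passed. NC siRNA #2 differed from non-treated in Sepn1 alone (0.73, adjusted p = 0.00955), where 23.2% passed, and from mock in none of the 10 by limma (14.6%). Mock and non-treated differed in none of the 10 by limma (0.215%).

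Genes with which these proteins work were read as lists, by counts over the genes tested against the mean of the 4 controls. Among all genes tested 35.5% rose and 17.9% fell in siSbp2l, with a median of 0.15, and 32.4% rose and 23% fell in siPdgfra, with a median of 0.09. Of the ER-associated degradation list, partners of Selk and Sels, 22 of 23 genes were tested. In siSbp2l 5 rose and 4 fell (median 0.11), and in siPdgfra 6 rose and 3 fell (0.12). In each case 9 of 22 passed, where 53.4% and 55.4% of all genes did, and the difference in share was not tested. Sel1l, the adaptor of the Hrd1 ubiquitin ligase, rose by 0.45 in siSbp2l (adjusted p = 0.000361) and fell by 1.20 in siPdgfra (adjusted p = 6.39e-07), the one gene of that list called in either. Among 21 genes of ER folding and stress, which surround Sep15, Selm and Selt, 5 rose and 1 fell in siSbp2l (median 0.01, beside 0.15 over all genes), and 3 rose and 12 fell in siPdgfra (-0.33, beside 0.09). Those called in siPdgfra were Dnajc3, a co-chaperone (-1.15), Creld2, a stress-induced ER protein (-1.03), and Ero1l, an ER oxidase (1.12). At Day3 against Day0 in non-treated cells, where 28.4% of all genes rose and 38.6% fell with a median of -0.12, 11 genes of the degradation list rose and 3 fell (median 0.31). In the folding list 3 rose and 12 fell (median -0.38), and the difference between these lists was not tested.

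The ER calcium list, of interest beside Sepn1, had 5 of 10 genes tested: 3 rose and 1 fell in siSbp2l (median 0.19), and 2 rose and 1 fell in siPdgfra (0.13). The gene that fell was Itpr2, a calcium release channel, at 11.2 to 31.2 FPKM in the control means, with log2 changes of -1.27 in siSbp2l and -2.32 in siPdgfra (adjusted p = 1.71e-06 and 7.48e-08). For methionine sulfoxide, the substrate of Sepx1, 6 of 8 genes were tested, with 1 up and 1 down in siSbp2l (median -0.15) and 4 up and 1 down in siPdgfra (0.41). Msrb2, the mitochondrial reductase of the same kind, rose by 1.06 in siPdgfra (adjusted p = 0.000176), where Sepx1 fell, and fell by 0.52 in siSbp2l (adjusted p = 0.0119). For the uptake of selenoprotein P, Lrp8, its receptor, rose in siSbp2l (0.67, adjusted p = 5.38e-05) and siPdgfra (0.94, adjusted p = 5.36e-06), and Scly, which frees selenium from selenocysteine, had differences of -0.23 (adjusted p = 0.28) and 0.71 (adjusted p = 0.00626). Lrp2 was not tested.

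The remaining selenoprotein genes, 8 of 14 tested, had 3 that rose and none that fell by limma in siSbp2l (median 0.09, beside 0.15 over all genes), and 5 that rose and 1 that fell in siPdgfra (0.37, beside 0.09), with Gpx1 (1.29) and Selh (1.22) called there. In non-treated cells at Day3 against Day0, 2 of these 8 rose and 5 fell (median -0.80), where 28.4% of all genes rose and 38.6% fell (median -0.12). Whether they differ from the 10 genes described here was not tested. In the list of selenocysteine synthesis and insertion, 10 of 10 tested, 2 rose and 3 fell in siSbp2l, the target Secisbp2l among the latter (median -0.05; 53.4% of all genes passed), and 6 rose and 3 fell in siPdgfra (median 0.28; 55.4% passed). Secisbp2, which encodes Sbp2, rose by 0.56 in siSbp2l (adjusted p = 0.000182) and by 0.23 in siPdgfra (adjusted p = 0.0255), and Eefsec, the elongation factor of selenocysteine, rose by 0.64 and 0.49.

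For the 7 genes whose group means spanned at least 1 on the log2 scale, the genes most like them in pattern were sought among 11874 over the 14 libraries, a description of correlated libraries. Sepx1 was most like Lfng (r = 0.98), Cttn (0.98) and Fbxo36 (0.96), and Sepw1 like Ndufv3 (0.97), Lamtor1 (0.96) and Ulk3 (0.95). Selt was most like Chpt1 (0.96), Tmed7 (0.95) and Ufm1 (0.93), and Selk like Dlk2 (0.96), 1810037I17Rik (0.95) and Tmem145 (0.94). Sepp1 was most like E130308A19Rik (0.97), Gbe1 (0.96) and Npc1 (0.96), Sels like Hist1h2bc (0.95), Brap (0.93) and Gid4 (0.92), and Selm like Fam70b (0.88), Aldh7a1 (0.87) and Mboat7 (0.85). None of these is one of the 10, and no gene of the 10 stood among the 3 most like another. Selk has a pseudogene, Gm12060, with at most 0.378 FPKM in any library, and reads shared between them are uncertain.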

How the data were processed

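Messenger RNA of mouse primary OPC/OLs was sequenced as stranded, poly(A)-selected, paired-end libraries. The authors processed the reads in OmicSoft ArrayStudio on mm10 and deposited 1 table of FPKM values, named as counts, with a column for each of the 14 libraries. Aligner, version and strand setting are not given in the sources used here. A second deposited table holds the authors' own fold changes and p-values for siSbp2l, which were not used; only its exon lengths and transcript numbers were. It gave the depth: multiplied by exon length, an FPKM moves in steps worth 1 fragment, and 89.4% to 92.8% of low values of single-transcript genes (at least 0.2 FPKM, up to 50 fragments) came out within 0.1 of a whole number. Depths are estimates, and fragments include PCR copies.

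Groups came from the sample labels. The test was limma 3.58.1 in R 4.3.3 (trend and robust moderation, two-sided) on log2(FPKM + 1) of the values as deposited, with 1 mean per group, in the 12 Day3 libraries (11650 genes) or, against Day0, all 14 (11874 genes). P-values were Benjamini-Hochberg adjusted over all genes tested. A gene passed under 0.05 and was called if it also changed at least 2-fold. Fold changes of low genes are understated by the pseudocount of 1. The replicates are described as independent cultures, 2 a group. The 10 genes, the lists and the rule for named genes were chosen with earlier results of these data known. Alternatives were other scalings, pseudocounts, filters, control sets, a replicate block, each library left out, and, added after seeing the data, the removal of GC and length trends and of the non-treated pair. GC content and selenocysteine codons came from GENCODE M21 transcripts and annotation, on mm10, where 99.3% of the tested genes had a GC value.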

Additional observations from a re-analysis of the deposited data

How the results depend on the processing

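Counts of genes passing were within 1.5 times the reported count except as follows. With only the libraries compared in the fit, the count was 3 for non-treated Day3 against Day0, 8 for siSbp2l against siPdgfra and 7 for NC siRNA #1 against NC siRNA #2. Fewer libraries then gave the spread, and only the non-treated comparison kept the non-treated pair. There the SE of Sepw1 rose from 0.26 in the reported fit to 0.37. The SE of Selm fell from 0.26 to 0.086 in siSbp2l against siPdgfra and from 0.26 to 0.075 between the NC siRNAs. The part of the non-treated pair in these counts was not tested. With GC and length trends removed, 5 genes passed in siSbp2l against the mean of the controls, Sepn1 and Sepp1 higher and 3 lower, and the cause was not tested. Leaving out 1 library gave 6 to 8 genes for non-treated against Day0, 5 to 6 for mock, 1 to 6 for siSbp2l against the mean, 5 to 10 for siPdgfra, 3 to 4 for siSbp2l against siPdgfra and 2 to 3 for the NC siRNAs.

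With the replicate number as a block the counts were 7, 6, 3, 9, 4 and 3 in the same order. The correlations of replicate differences between groups ran from -0.38 to 0.47. Because these differences followed GC content in some groups, the correlations cannot decide whether a replicate number marks a shared culture. The block changed 2 calls, Selm in siPdgfra against the mean (-0.50, adjusted p = 0.0454) and Sepw1 in siSbp2l against siPdgfra, and no other.

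Signs turned in values that had not passed. With median-ratio scaling the log2 differences were 0.015 for Selm and 0.017 for Sepn1 (non-treated against Day0), 0.018 for Selo (mock against Day0), -0.14 for Sels (siSbp2l against the mean), -0.035 for Sep15 and -0.083 for Sepp1 (siSbp2l against siPdgfra) and 0.057 for Selk (NC siRNA #1 against #2). With upper-quartile scaling Sepn1 was 0.0004, Selo 0.033 and Sels -0.046 in these comparisons. With GC and length trends removed Selm was 0.041, Sepp1 -0.028 and Selk 0.077. Against the NC siRNAs alone, siSbp2l gave 0.29 for Selm and -0.096 for Sepn1. The cause of these turns was not tested.

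Leaving out 1 library moved Selm from -0.60 to 0.43 and Sepn1 from -0.32 to 0.16 in non-treated against Day0, the ends being non-treated replicate 1 and 2 left out, and without either of these Selm passed (adjusted p = 0.000224 and 0.00258). It moved Selo from -0.14 to 0.061 in mock against Day0. In siSbp2l against the mean it moved Sepw1 from -0.19 to 0.078, Sels from -0.038 to 0.098, Selm from -0.19 to 0.071 and Sepx1 from -0.10 to 0.038. It moved Sepp1 from -0.077 to 0.077 in siSbp2l against siPdgfra and Selk from -0.031 to 0.018 between the NC siRNAs.

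Of the 1020 values of single genes under an alternative, 916 kept their direction and side of the threshold, 37 lost the call, 37 gained one and 30 changed sign. With 2 libraries a group, small differences could be missed. The SE of a knockdown against the mean ran from 0.08 in Sep15 to 0.22 in Sepw1 on the log2 scale. With the non-treated pair left out of the fit, it was 0.05 in Sep15, 0.09 in Sepw1 and 0.10 in Selk.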
